A study of Mus musculus with 4 samples.

Results

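Acute phase and neutrophil genes were examined in fat from the pad beside the epididymis of male mice. They are the 10 genes Lcn2, Saa3, Il1b, Il6, Tnf, S100a8, S100a9, Csf3r, Retnlg and Chil1, taken by name out of the 19505 genes that the array platform's annotation names. All 10 were measured, each by 1 probe set. Total RNA from 4 samples, 1 for each group, was hybridised to 1-colour Affymetrix arrays of the Clariom S Mouse type. Veh-Sham received DMSO as vehicle and sham surgery, and Veh-SA received DMSO and synergist ablation, surgery in which helper muscles are cut away so that the one left carries more load. GW-Sham and GW-SA received GW4869, a blocker of extracellular vesicle release, with sham surgery and with ablation. The sources used here state neither strain, age, dose nor timing, nor whether a sample held 1 mouse or a pool. With 1 array per group no difference has a replicate check, so no test was made, and all values describe these 4 arrays.

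Acute phase proteins are secreted in quantity when inflammatory cytokines signal, classically by the liver and also by fat. Tumour necrosis factor and interleukin-1 signal to NF-kB and interleukin-6 to STAT3, and C/EBP factors act with both on acute phase promoters. Neutrophils are short-lived blood granulocytes that enter inflamed tissue early. They carry the S100A8 and S100A9 proteins in their cytosol, while their granule proteases are transcribed mainly in the bone marrow.

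The GW-SA array held the highest reading of 9 of the 10 genes. On it 9 of 10 stood above the background line, against 2 on Veh-Sham, 2 on Veh-SA and 3 on GW-Sham. This line is the 95th percentile of 23 antigenomic probe rows, which match no mouse sequence, and lay between log2 6.34 and 6.40. The median of the 10 genes was 3.62 on Veh-Sham, 5.14 on Veh-SA, 5.35 on GW-Sham and 8.41 on GW-SA. For 9 of 10 genes GW-SA was at least 1.5-fold above each of the other arrays, a pattern that 5.68% of all 19505 genes showed. Tnf is counted among the 9 although its readings were all under the line. Among the 11703 genes with a mean above log2 4.67, a floor at the 40th percentile of gene means, 6.84% showed it. Chil1 alone among the 10 was highest on GW-Sham. Veh-Sham held the lowest reading of 9 of 10, the exception being Lcn2, which was lowest on Veh-SA. Of those 9 only Saa3 was above the line on Veh-Sham, so for the others the lowest place is within background. The share of all genes lowest on Veh-Sham was not counted. In bulk tissue fewer cells of a type and less RNA per cell cannot be told apart.

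**Figure D1:**
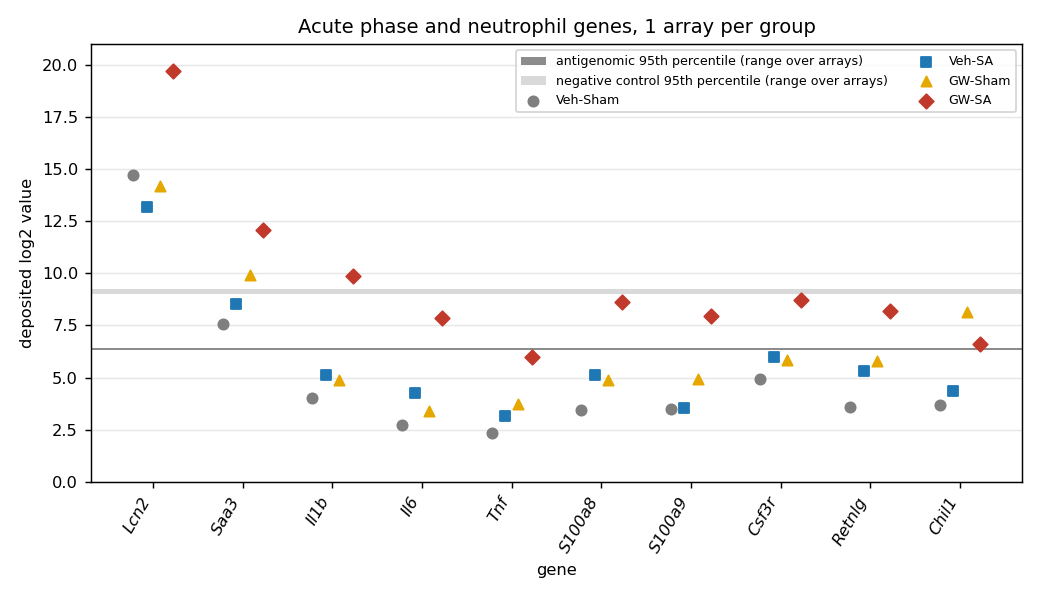
Deposited log2 values (y axis) of the 10 genes (x axis) on the 4 arrays, 1 point per array, with bands for the range over arrays of the 95th percentiles of antigenomic probes and of negative controls. GW-SA points lie above those of the other arrays for every gene but Chil1, and for 7 genes all the other arrays lie under the antigenomic band.

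Several properties of the whole table bear on these readings. Negative control rows, 5222 in number, reached higher than the antigenomic probes, with 95th percentiles of 9.01 to 9.27, and above that stricter limit stood 1, 1, 2 and 3 of the 10 genes on Veh-Sham, Veh-SA, GW-Sham and GW-SA. The highest value of an array was between 19.74 and 19.93 and was shared by 2 to 8 probe sets, so the scale has a ceiling. Fat genes were high throughout: the 17 measured mature adipocyte markers had medians of 16.12, 16.73, 16.28 and 15.86 in the same array order. RNA of the male reproductive tract was unevenly spread. Epididymal genes were read above the background line for 6, 1, 1 and 16 of 18, sperm and testis genes for 17, 1, 1 and 4 of 17, and distal tract genes for 6, 0, 6 and 0 of 6. The direction of the bulk of genes depended on the scaling. Of genes at least 1.5-fold apart, 64.2% were higher in Veh-SA than in Veh-Sham, but 83.6% with arrays centred on all genes and 15.7% when centred on adipocyte markers. The same shares were 46.7%, 34.9% and 86.7% for overload under GW4869, and 66.7%, 83.4% and 54.0% for GW4869 in sham mice. They were 49.5%, 30.1% and 97.5% for GW4869 in overloaded mice, and 37.2%, 18.5% and 89.3% for the difference between the overload differences.

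The promoters of 5 of the genes are shown because they hold, or lack, short motifs of the 2 transcription factor families named above. Each is the 250 bases before the RefSeq start of the gene in GRCm38.p6, 5′ to 3′ on the gene's strand. They lie at chr2:32387740-32387989 on the minus strand for Lcn2, chr7:46715677-46715926 on the minus strand for Saa3, chr2:129371140-129371389 on the minus strand for Il1b, chr5:30012864-30013113 on the plus strand for Il6 and chr1:134181906-134182155 on the plus strand for Chil1. Capitals mark matches on either strand to GGGNNNNNCC, a loose NF-kB motif, or to TTNNGNAA, a loose C/EBP motif.
Lcn2: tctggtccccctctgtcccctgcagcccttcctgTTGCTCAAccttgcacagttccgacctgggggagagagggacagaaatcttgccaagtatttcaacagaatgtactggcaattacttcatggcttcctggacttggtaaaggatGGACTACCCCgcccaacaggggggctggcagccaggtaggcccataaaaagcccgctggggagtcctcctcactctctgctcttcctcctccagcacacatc
Saa3: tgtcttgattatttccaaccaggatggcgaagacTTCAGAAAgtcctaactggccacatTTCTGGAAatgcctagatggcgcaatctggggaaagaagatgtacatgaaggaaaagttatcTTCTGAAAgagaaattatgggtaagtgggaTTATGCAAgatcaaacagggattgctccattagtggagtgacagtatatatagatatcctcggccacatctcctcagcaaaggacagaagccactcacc
Il1b: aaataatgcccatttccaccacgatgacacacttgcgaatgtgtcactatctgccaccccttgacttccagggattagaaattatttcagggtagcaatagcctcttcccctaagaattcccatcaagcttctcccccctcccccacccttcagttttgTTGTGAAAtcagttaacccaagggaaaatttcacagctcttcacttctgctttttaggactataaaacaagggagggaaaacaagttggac
Il6: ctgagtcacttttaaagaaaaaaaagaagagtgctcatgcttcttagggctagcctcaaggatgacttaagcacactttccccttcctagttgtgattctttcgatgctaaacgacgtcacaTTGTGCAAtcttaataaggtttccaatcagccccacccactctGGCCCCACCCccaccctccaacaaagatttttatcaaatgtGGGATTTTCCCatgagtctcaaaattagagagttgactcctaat
Chil1: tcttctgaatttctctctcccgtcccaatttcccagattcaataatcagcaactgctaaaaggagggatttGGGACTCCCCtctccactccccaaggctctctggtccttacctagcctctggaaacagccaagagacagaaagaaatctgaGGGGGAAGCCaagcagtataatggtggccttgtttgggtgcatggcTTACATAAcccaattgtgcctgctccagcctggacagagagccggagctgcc
Lcn2 had 1 NF-kB match, 102 bases before the start, and 1 C/EBP match, 216 bases before it. Saa3 had 4 C/EBP matches and no NF-kB match. Il1b had 1 C/EBP match, 91 bases before its start, and Il6 had 1 at 128 bases with 3 NF-kB matches, at 85, 44 and 43 bases, of which the last 2 overlap. Chil1, the gene with the different pattern, had both kinds too. Over all 10 genes, all of which have an entry in the promoter table, 5 had an NF-kB match and 9 a C/EBP match. The motifs are short and common: 45.8% and 36.8% of the table's 32851 promoters of the same length held them. A match describes letters only, and the arrays did not measure binding.

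Lcn2 and Saa3 encode secreted proteins. Lcn2, lipocalin 2, binds bacterial iron carriers and is made by inflamed tissue, fat and several epithelia. It stood at 14.73 on Veh-Sham, 13.16 on Veh-SA, 14.19 on GW-Sham and 19.70 on GW-SA. It was the 1 gene of the set read far above both background limits on all arrays, and only GW-SA stood apart from the others by several log2 units. The GW-SA value lay 0.23 under that array's highest value, so there was little room above it. Lcn2 was 1.57 lower on Veh-SA than on Veh-Sham, 5.51 higher on GW-SA than on GW-Sham, which is 45.6-fold on the deposited scale, and 6.54 higher on GW-SA than on Veh-SA. The summed level of the 18 epididymal genes, the log2 of the sum of their unlogged values, was 16.67, 8.31, 8.50 and 20.08 on Veh-Sham, Veh-SA, GW-Sham and GW-SA. Both arrays with the higher epididymal sums thus also had the higher Lcn2 readings. Where that sum was low, on Veh-SA and GW-Sham, Lcn2 still read 13.16 and 14.19. The part of epididymal RNA in its values was not tested.

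Saa3, serum amyloid A3, is the member of its family made by fat and macrophages in mice. It stood at 7.55 on Veh-Sham, 8.53 on Veh-SA, 9.90 on GW-Sham and 12.06 on GW-SA. All 4 readings lay above the antigenomic line, those of the GW4869 arrays also above the negative control limit, and each GW4869 array was higher than both vehicle arrays. Overload exceeded sham by 0.97 with vehicle and by 2.16 with GW4869, and GW4869 exceeded vehicle by 2.34 in sham and by 3.53 in overloaded mice. Its relatives Saa1, Saa2 and Saa4, neighbours on the chromosome, did not reach the background line on any array, with highest readings of 4.29, 5.13 and 2.53.

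The 3 cytokine genes were near or under background on all arrays but GW-SA. Il1b, the interleukin-1 beta gene of activated macrophages and neutrophils, stood at 4.02 on Veh-Sham, 5.13 on Veh-SA, 4.88 on GW-Sham and 9.88 on GW-SA. GW-SA was the 1 array on which it could be read, and there it also passed the negative control limit. Its overload difference under GW4869 was 5.0 as deposited and at least 3.54 against the antigenomic line, or at least 0.70 against the negative control limit. Il6, the cytokine that drives the liver's acute phase response, stood at 2.74 on Veh-Sham, 4.27 on Veh-SA, 3.42 on GW-Sham and 7.88 on GW-SA. It was thus at least 1.53 log2 units higher on GW-SA than on GW-Sham, with the GW-SA reading inside the negative control range. Tnf, the tumour necrosis factor gene, stood at 2.36, 3.13, 3.74 and 5.97 in the same order. It too was highest on GW-SA, but it stayed under the background line on every array, so its differences as deposited, which enter the counts below, are within background. Il6 and Tnf also had means under the floor.

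The 4 neutrophil-associated genes shared 1 picture: all were under the background line on Veh-Sham, Veh-SA and GW-Sham and above it on GW-SA. S100a8, which with S100a9 forms calprotectin, stood at 3.44 on Veh-Sham, 5.14 on Veh-SA, 4.90 on GW-Sham and 8.63 on GW-SA. S100a9, its direct neighbour on the chromosome, stood at 3.50, 3.53, 4.92 and 7.94. In both, GW-SA was the high array and the rest did not leave background. Csf3r, the receptor for the granulocyte growth factor G-CSF, stood at 4.93, 5.98, 5.83 and 8.72. Retnlg, a resistin-like gene of granulocytes, stood at 3.56, 5.32, 5.79 and 8.18. Against the line, overload under GW4869 was at least 2.28 higher for S100a8, 1.59 for S100a9, 2.37 for Csf3r and 1.84 for Retnlg. All 4 GW-SA readings lay under the negative control limit of that array, 9.27, so by that stricter measure no difference can be given.

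Chil1 encodes a chitinase-like protein made by macrophages, neutrophils and stressed epithelia. It stood at 3.67 on Veh-Sham, 4.36 on Veh-SA, 8.12 on GW-Sham and 6.59 on GW-SA. Both GW4869 arrays were above the line and both vehicle arrays under it, with sham above overload under GW4869, the reverse of the other 9 genes. The difference between GW-Sham and Veh-Sham was 4.45 as deposited and at least 1.73 against the line. Overload under GW4869 was lower by 1.53, with both readings above the antigenomic line and under the negative control limit.

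Overload against sham under vehicle asks how fat differs after muscle overload without GW4869. Of the 10 genes, 8 were at least 1.5-fold higher on Veh-SA, 1 was lower (Lcn2) and 1 between (S100a9, at 0.03), with a median log2 difference of 1.01. Over all genes 27.2% were that much higher and 16.7% lower, or 30.2% and 16.9% of those above the floor, and the median gene differed by 0.21. Saa3 was the 1 gene of the 8 with both readings above the background line, and for the other 7 both were under it. With readings under the line set to it, 1 of 10 genes was higher, and when arrays were centred on adipocyte markers 3 were.

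The same contrast was taken under GW4869. Vesicle release itself was not measured by the arrays. Here 9 of 10 genes were at least 1.5-fold higher on GW-SA and Chil1 lower, with a median of 2.95. Over all genes 12.1% were higher and 14.7% lower, or 13.4% and 15.3% of those above the floor, with a median gene of -0.05. With readings under the line set to it 8 of 10 were higher, with Tnf lost, and with readings under the negative control limit set to it 3 were, namely Lcn2, Saa3 and Il1b.

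**Figure D2:**
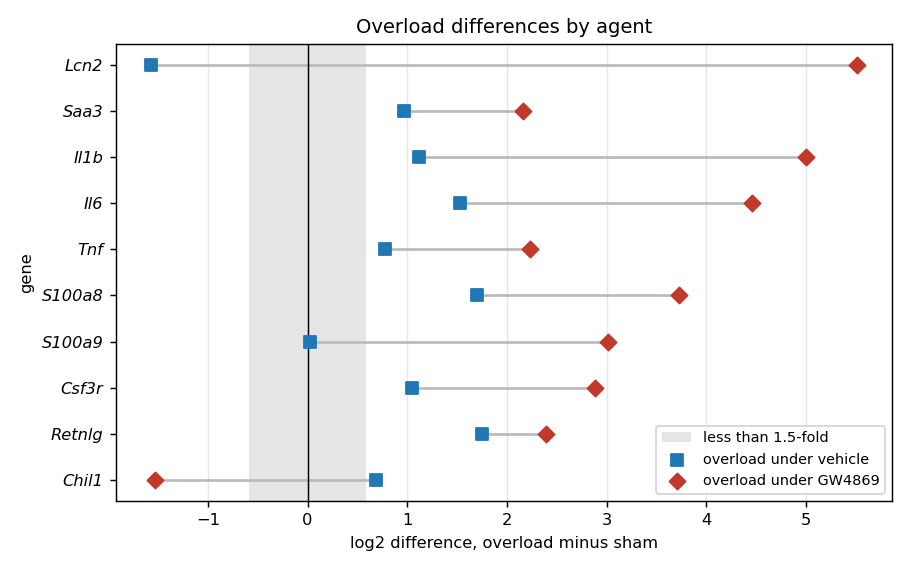
Log2 difference of overload minus sham (x axis) for each gene (y axis) under vehicle (squares) and under GW4869 (diamonds), 1 array per group, with the zone under 1.5-fold shaded. The GW4869 point lies to the right of the vehicle point for 9 genes and to the left for Chil1, and Lcn2 spans from -1.57 to 5.51.

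The overload difference was larger under GW4869 than under vehicle for 9 of 10 genes by at least 1.5-fold, and smaller for Chil1, with a median of 1.93. Over all genes 21.2% were larger by that much and 34.0% smaller, or 21.5% and 36.3% of those above the floor, with a median gene of -0.24. Lcn2 and Saa3, the genes read above the line on all arrays, had values of 7.08 and 1.19. For the others the vehicle readings were under the line, so their values as deposited, such as 3.89 for Il1b and 0.64 for Retnlg, have no order. With readings under the line set to it, 8 of 10 genes were larger by 1.5-fold or more, with a median of 1.76. Il1b was then at 3.59, Csf3r at 2.42, S100a8 at 2.33, Retnlg at 1.89, S100a9 at 1.64, Il6 at 1.58 and Tnf at 0.0736. These values are not bounds and have no order either, because the vehicle readings of these genes were replaced by the line. They can exceed the deposited values, as for Retnlg. All readings of Tnf were replaced, so its value holds only gaps between the lines of the arrays. Retnlg was under 1.5-fold with arrays centred on all genes (0.06) or after quantile normalization (0.27).

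GW4869 against vehicle was set side by side in sham and in overloaded mice. In sham mice 9 of 10 genes were at least 1.5-fold higher with GW4869 and Lcn2 differed by -0.54, with a median of 1.40, against 24.3% of all genes and 28.9% of those above the floor. Lcn2 passed 1.5-fold downwards with arrays centred on adipocyte markers (-0.69) or after quantile normalization (-0.59). Only Saa3 and Chil1 among the 9 had a reading above the background line there. In overloaded mice 10 of 10 were higher, with a median of 3.51, against 15.1% and 18.4% of genes. On Veh-SA, however, 8 of the 10 readings were under the line. With readings under the line set to it 8 of 10 genes were higher, with a median of 2.06, and Chil1 (0.24) and Tnf (0.0211) were not. For Tnf, under the line on both arrays, that value is the gap between their lines. Lcn2 and Saa3, read above the line on both arrays, differed by 6.54 and 3.53. The median gene differed by 0.19 in sham and by -0.08 in overloaded mice. Each array enters 2 of these 4 comparisons, so they are not independent of each other.

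The signalling genes around the 3 cytokines were taken from lists and are given with all their measured members. Beside the counts of these and all later lists stand the shares of all genes. In overload 27.2% were higher and 16.7% lower under vehicle, and 12.1% and 14.7% under GW4869. With GW4869 24.3% were higher in sham and 15.1% in overloaded mice. Of 14 IL-1 signalling genes, 7 were higher in overload under vehicle and 0 lower, and 10 were higher and 2 lower under GW4869, with medians of 0.58 and 0.92. Of those 10, 3 were never above the line. Il1rn, the natural antagonist of the interleukin-1 receptor, stood at 2.54, 3.75, 5.84 and 8.24 on Veh-Sham, Veh-SA, GW-Sham and GW-SA, above the line on GW-SA only. Il33, an alarm cytokine of stromal cells, stood at 6.73, 7.08, 7.84 and 9.11. Il18, another cytokine of the family, and Casp1, the protease that releases both Il1b and Il18 proteins, did not have their highest reading on GW-SA. Il18 stood at 8.49, 9.13, 9.64 and 8.64, and Casp1 at 7.32, 7.97, 8.21 and 7.96.

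Of 17 genes of IL-6 and STAT3 signalling, 10 were higher in overload under vehicle and 0 lower, and 9 were higher and 1 lower under GW4869, with medians of 0.78 and 0.61. Socs3, the feedback inhibitor that STAT3 induces, stood at 2.54, 3.26, 3.19 and 6.52 on Veh-Sham, Veh-SA, GW-Sham and GW-SA, just above the line on GW-SA. Pim1, a kinase gene induced by STAT factors, stood at 7.80, 7.55, 8.19 and 9.59. The receptor genes Il6ra and Lifr were not highest on GW-SA, with 8.12, 9.12, 8.79 and 8.89 for Il6ra and 10.62, 11.40, 10.98 and 10.41 for Lifr.

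Of 17 TNF and NF-kB genes, 9 were higher in overload under vehicle and 8 under GW4869, and 0 were lower in either, with medians of 0.60 and 0.53. Between the overloaded arrays 14 of 17 were higher with GW4869 and 0 lower, with a median of 1.45, against 15.1% of all genes higher. Tnfaip2, a gene induced by tumour necrosis factor, stood at 7.85, 7.94, 8.79 and 12.13 on Veh-Sham, Veh-SA, GW-Sham and GW-SA. Icam1 and Vcam1, adhesion molecules that hold leukocytes to vessel walls, stood at 5.47, 6.44, 6.83 and 9.01, and at 7.58, 7.55, 8.03 and 9.44. Rel, an NF-kB subunit, stood at 6.73, 6.52, 7.22 and 8.34. All 4 were highest on GW-SA.

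Other acute phase genes differed in both directions. Of 27 measured, 13 were higher and 3 lower in overload under vehicle, and 13 higher and 6 lower under GW4869, with a median of 0.52 in both. Of the 13 higher under GW4869, 3 were never above the line. Fgg and Fga, fibrinogen chains, stood at 13.72 and 12.76 on GW-SA and at 4.69 or less on the other arrays, while the third chain, Fgb, was under the line on all arrays. Timp1, an inhibitor of matrix proteases that interleukin-6 induces, stood at 3.79, 3.29, 5.98 and 9.64 on Veh-Sham, Veh-SA, GW-Sham and GW-SA. Orm1, a carrier protein of plasma, went the other way, with 11.23, 11.51, 11.59 and 9.39. Of the 27 genes, 10 did not pass the line on any array. Fga and Fgg were high on the array with the highest epididymal sum, and the part of epididymal RNA in their values was not tested.

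Most other neutrophil genes were not read above background. Of 12 defining neutrophil markers 11 were measured, and the 4 above the line on GW-SA were S100a8, S100a9, Csf3r and Retnlg. The other 7, which are Elane, Mpo, Ltf, Camp, Ngp and Mmp8 of the granules and the chemokine receptor Cxcr2, were under the line on all 4 arrays. Ly6g was not analysed here. In the longer list of 21 measured granule and identity genes, 14 were never above the line, and 3, 2, 6 and 6 were above it on Veh-Sham, Veh-SA, GW-Sham and GW-SA. Overload under GW4869 had 7 of 21 higher and 3 lower, with a median of 0.14, and overload under vehicle 4 and 3, with 0.19. Of the 7, 4 were never above the line. Clec4e, a receptor for cell debris and microbes shared with macrophages, stood at 5.10, 4.66, 6.35 and 8.56. Hdc, the histamine-forming enzyme of mast cells and granulocytes, stood at 7.09, 7.01, 7.81 and 8.41. Mmp9, a matrix protease, stayed close to the line at 6.13, 6.33, 6.96 and 6.52. Ptgs2, the inducible cyclooxygenase, stood at 14.26 and 14.30 on the sham arrays and 2.52 and 6.18 on the overloaded ones, and it also belongs to the distal tract list, which was high on the same sham arrays. Prtn3 stood at 5.86, 6.05, 6.35 and 6.90 on Veh-Sham, Veh-SA, GW-Sham and GW-SA, just above the line on the GW4869 arrays. Wfdc21 was above it on all arrays at 8.21, 8.63, 8.71 and 8.86, and Clec4d on GW-SA only at 7.94. Among the defining markers the label of neutrophil genes thus rests on 4 genes on 1 array.

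**Figure D3:**
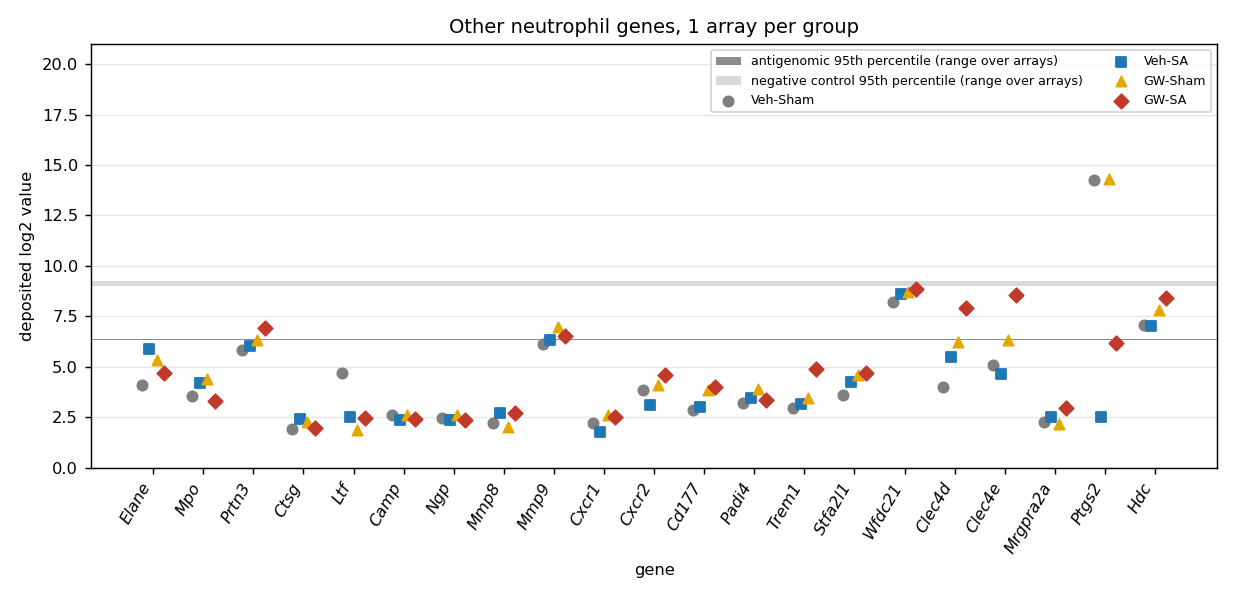
Deposited log2 values (y axis) of the 21 measured granule and identity genes (x axis) on the 4 arrays, 1 point per array, with the same background bands. Elane, Mpo, Ltf, Camp, Ngp, Mmp8 and Cxcr2 lie under the antigenomic band on all arrays, and Clec4d and Clec4e have their highest point on GW-SA.

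Genes listed for neutrophil attraction and growth were in part highest on GW-SA, several of them within background there. Of 14 measured, 10 were higher in overload under GW4869 and 1 lower, with a median of 1.31, and 4 higher and 0 lower under vehicle, with 0.43. Of those 10, 6 were never above the line, so that count and median rest mostly on readings within background. Ccl2, a chemokine for monocytes, stood at 5.11, 6.34, 7.33 and 10.94 on Veh-Sham, Veh-SA, GW-Sham and GW-SA, and Ccl3, a chemokine of macrophages, at 3.49, 3.74, 5.96 and 9.65. Both were highest on GW-SA. Il17ra, a receptor subunit for interleukin-17, stood at 6.92, 7.10, 7.05 and 7.88, and Selplg, the leukocyte ligand of selectins, at 7.62, 8.86, 9.85 and 9.27. The growth factor gene Csf3, whose receptor Csf3r is among the 10, was under the line on all arrays, as were 8 others of the list. Among those 8 were the chemokine genes Cxcl1, Cxcl2, Cxcl3 and Cxcl5, at 6.34, 6.11, 4.98 and 4.78 on GW-SA.

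Markers of other white blood cells differed by type. Of 12 general myeloid genes, 12 were higher with GW4869 in sham mice and 11 in overloaded mice, against 24.3% and 15.1% of all genes. The medians were 2.08 and 1.40. Overload under GW4869 had 3 of 12 higher, 0 lower and 9 between, with a median of 0.37, in the comparison where the median of the 10 genes was 2.95. Their summed levels were 15.08, 15.85, 17.15 and 17.34 on Veh-Sham, Veh-SA, GW-Sham and GW-SA. Of 14 macrophage markers 14 were higher with GW4869 in sham and 8 in overloaded mice. In overload under GW4869 3 were higher and 4 lower in overload under GW4869, with a median of -0.32, and summed levels were 14.17, 14.56, 15.74 and 15.88. Adgre1, which encodes a surface receptor typical of mouse macrophages, stood at 7.97, 8.47, 9.52 and 11.02, whereas Csf1r, the receptor for macrophage growth factor, stood at 11.16, 11.69, 12.75 and 12.05. Of 10 monocyte markers 6 were higher with GW4869 in sham and 5 in overloaded mice, and in overload under GW4869 3 were higher and 2 lower, with a median of -0.10. Plac8, a gene of monocytes and other myeloid cells, differed by -1.11 in overload under GW4869, the coagulation factor gene F13a1 by -0.52 and Ace, the angiotensin-converting enzyme, by -0.06. In overload under vehicle they differed by -6.09, 1.11 and -1.48. Plac8 stood at 13.58 on Veh-Sham, 7.49 on Veh-SA, 13.07 on GW-Sham and 11.96 on GW-SA, and Ace at 12.40, 10.92, 11.48 and 11.43. Both were highest on Veh-Sham, where sperm and testis genes were also high. Plac8 was high on both sham arrays, as the distal tract genes were. The part of tract RNA in the values of Plac8 and Ace was not tested. Chil3, a chitinase-like gene of monocytes and activated macrophages, stood at 3.89, 4.15, 4.67 and 7.0, above the background line on GW-SA only. Of the 11 T and B cell markers 5 were higher with GW4869 in sham and 3 in overloaded mice. In overload under GW4869 4 were higher and 2 lower, with a median of 0.25. Of the 11, 9 were never above the background line, among them 3 of those 4. These counts thus rest mostly on readings within background. The 5 red cell and platelet markers gave 0 higher and 0 lower in that comparison, with a median of 0.02. Among them Pf4 stood at 9.17, 9.34, 10.12 and 10.33. The part of cell makeup in the values of the 10 genes was not tested.

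Tissues outside fat varied in the same comparisons. Of 18 epididymal genes 16 were higher and 0 lower in overload under GW4869, with a median of 8.99. The defining markers Gpx5, Lcn5 and Adam7 stood at 19.53, 13.38 and 16.01 on GW-SA and at 4.18, 14.22 and 14.64 on Veh-Sham. Another defining marker, Rnase9, stood at 13.43 on Veh-Sham and 6.65 on GW-SA. Epididymal genes were thus not read on GW-SA alone. Veh-Sham carried sperm and testis genes with a summed level of 19.66 against 8.40 to 9.63 on the other arrays. It was also the array on which 9 of the 10 genes were lowest, but of those 9 only Saa3 was above the background line there. The 6 distal tract genes had summed levels of 16.57, 6.10, 15.92 and 7.72 on Veh-Sham, Veh-SA, GW-Sham and GW-SA. That list had been assembled with values of these arrays known. Of 10 mesothelial markers 3 were higher and 6 lower in overload under GW4869, although the epithelial keratins Krt8 and Krt18 stood at 12.08 and 11.62 on GW-SA and at 9.05 or less elsewhere. The 17 adipocyte markers gave 0 higher and 3 lower, with a median of -0.38. The part of tract RNA in the readings of the 10 genes was not tested.

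**Figure D4:**
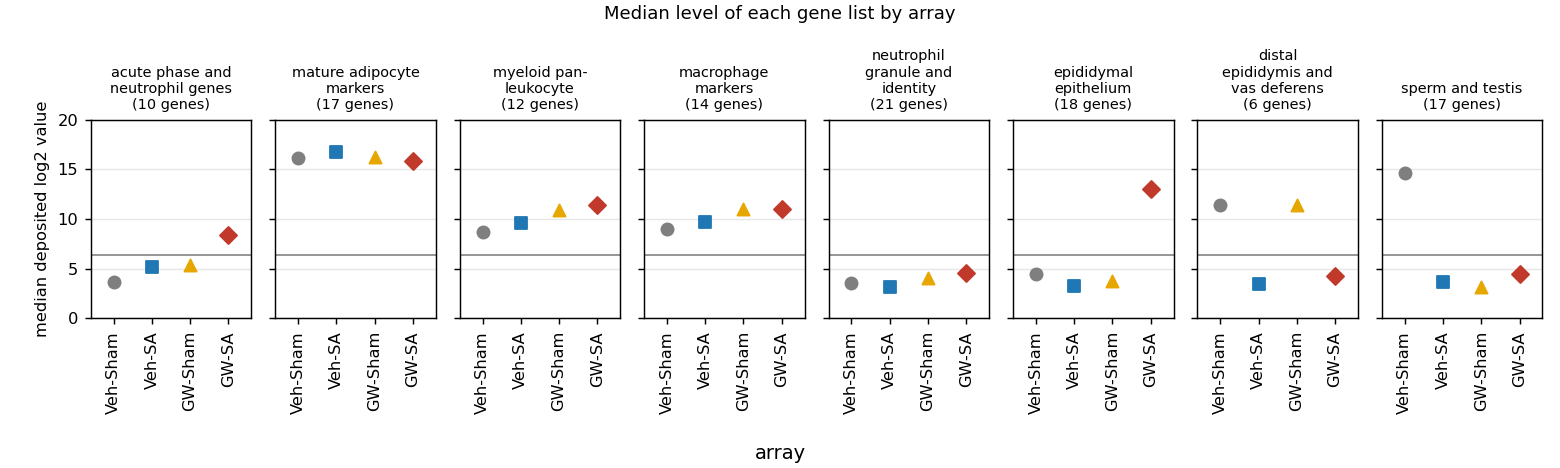
Median deposited log2 value (y axis) of the 10 genes and of 7 marker lists on each array (x axis), 1 point per array, with the antigenomic background line. The median of the 10 genes is highest on GW-SA (8.41), where the epididymal median is also highest (13.04), while the macrophage medians of the GW4869 arrays lie close together (10.98 and 11.06).

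The genes most like the set were found by distance. Each gene was centred on its own mean over the 4 arrays, and the root mean square distance to the median centred profile of the 10 genes was taken for 11271 other genes above the floor, after 424 predicted gene models and sensory receptor genes were left out by name. That median profile was -1.90, -0.76, -0.30 and 2.76 on Veh-Sham, Veh-SA, GW-Sham and GW-SA. On Veh-Sham, Veh-SA and GW-Sham only 2, 2 and 3 of the 10 genes were above the background line. Apart from GW-SA the profile is therefore mostly within background. Nearest was Adgrg2, an adhesion receptor known from the efferent ducts and epididymis, at a distance of 0.30 log2 units. Rnf149, a ubiquitin ligase, followed at 0.32, Sdc1, a cell surface proteoglycan of epithelia and plasma cells, at 0.365 and Tnfaip2 at 0.39. Svs3a, a seminal vesicle secretory gene, and Hspb1, a small heat shock protein, were both at 0.39, and Cxcl10, an interferon-induced chemokine, and St8sia6, a sialyltransferase, both at 0.43. Svs3a, Cxcl10 and St8sia6 were themselves above the line on GW-SA only. Of the 10 genes themselves S100a8 and Retnlg lay closest to their median at 0.32, and Lcn2 and Chil1 farthest at 1.31 and 1.68. With 4 points per gene and many genes to choose from, a small distance is a description only.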

How the data were processed

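Values were deposited by the authors on a log2 scale. The submitters' processing notes name Partek and RMA without versions, and the background and normalization settings are not stated there. Of 28846 rows, 19572 probe sets carry 1 gene symbol in the platform's annotation and 0 carry several. Where a gene had several probe sets, the one with the highest mean was kept, which left 19505 genes. Differences of log2 values were taken with Python 3.11.15 and pandas 2.3.3, and called at 1.5-fold or more. With 1 array per group there was no test, and precision is limited by that number. A reading under the background line was replaced by the line to give a bound on a difference between arrays. For the difference between the overload differences this replacement gives no bound. Promoters came from RefSeq, with GRCm38.p6 coordinates. The counting step was tested on simulated data. The 10 genes and all lists were chosen with earlier results of these data known. Named are the 10 genes, up to 4 per list with the largest difference between the overload differences among genes above the background line on at least 1 array, a condition that GW-SA often decides, and the 8 nearest profiles. Saa1, Saa2, Saa4, Fgb, Csf3, Cxcl1, Cxcl2, Cxcl3, Cxcl5, Prtn3, Wfdc21, Clec4d and the defining markers named by cell type were added outside that rule. Alternatives were other scalings, floors, filters, probe set means and a 2-fold threshold.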

Additional observations from a re-analysis of the deposited data

Results flagged for a closer look

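Lcn2 and Chil1 had overload differences of opposite sign under vehicle and under GW4869, each at least 1.5-fold. Lcn2 differed by -1.57 and 5.51, a gap of 7.08, and all 4 of its readings were above both background limits. Chil1 differed by 0.68 and -1.53, a gap of -2.22, and both of its vehicle readings were within background. With 1 array per group neither gap was tested. The other 8 genes had overload differences of the same sign under both agents. Among these only Saa3 had vehicle readings above the background line, so for the rest the sign under vehicle is within background.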

How the results depend on the processing

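No paired analysis was possible because each group has 1 array, and for the same reason no replicate could be left out. Counts of higher genes among the 10 stayed within 1.5 times under all settings but the negative control limit for overload under GW4869 (8 to 9), for GW4869 in overloaded mice (8 to 10) and for the gap between the overload differences (8 to 9). Dropping the filter or averaging probe sets could not change the values of the 10 genes. Each of them has 1 probe set, and the filter acted on counts over the whole table only. Overload under vehicle went from 8 of 10 with a median of 1.01 to 3 and 0.40 with arrays centred on adipocyte markers and to 3 and 0.23 with the floor as the lowest value. It went to 1 and -0.0494 with the antigenomic line as the lowest value, and to 5 at 2-fold. GW4869 in sham mice went from 9 and 1.40 to 4 and 0.24 at the floor and to 2 and -0.0525 at the line. Single genes under the line on both arrays took the same values. These were -0.0494 for Il1b, Il6, Tnf, S100a8, S100a9, Csf3r, Retnlg and Chil1 in the former comparison. In the latter they were -0.0525 for Il1b, Il6, Tnf, S100a8, S100a9, Csf3r and Retnlg. By construction these are gaps between the lines of 2 arrays and not measured differences.

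Setting values under the 95th percentile of negative controls to it was chosen after seeing the data. It left 0 higher genes with a median of 0.18 for overload under vehicle, 3 and 0.0908 under GW4869, 1 and 0.17 for GW4869 in sham mice, 3 and 0.0763 in overloaded mice, and 2 and -0.0925 for the difference between the overload differences. These medians are again gaps between the limits of arrays and not measured differences. So are the single values of Il6, Tnf, S100a8, S100a9, Csf3r, Retnlg and Chil1, 0.0908 under GW4869 and -0.0925 in the difference of differences. Over the whole table counts moved more. Higher and lower genes numbered 3537 and 1972 for overload under vehicle, with ranges over the alternatives of 802 to 6814 and 804 to 4321. They numbered 1564 (455 to 4027) and 1787 (617 to 2862) under GW4869, and 3385 (1100 to 6205) and 1690 (697 to 2961) for GW4869 in sham mice. For GW4869 in overloaded mice they numbered 2156 (710 to 7692) and 2202 (199 to 3785), and for the difference between the overload differences 2519 (1073 to 6712) and 4252 (805 to 7072).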

Other observations

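The gene families of 4 members of the set did not share the members' pattern as a whole. Of 14 other S100 genes, calcium-binding proteins like S100a8 and S100a9, 3 were higher and 2 lower in overload under GW4869, with a median of -0.16. Of the 14, 7 were under the background line on all arrays, among them 2 of the 3 that were higher. S100a1 stood at 11.21 on Veh-Sham, 12.29 on Veh-SA, 12.62 on GW-Sham and 11.18 on GW-SA, and S100a4 at 6.74, 7.50, 8.35 and 8.24. The resistin family, to which Retnlg belongs, includes Retn, a hormone of mouse fat cells, at 19.26, 19.56, 19.53 and 19.00, near the ceiling of the scale. Retnla, a gene of alternatively activated macrophages and fat, stood at 15.51, 15.72, 16.64 and 14.37, lowest on the array where Retnlg was highest. Of 7 other chitinase-family genes, relatives of Chil1, 2 were higher and 1 lower in overload under GW4869. Of those 2, 1 was never above the line. Over all genes 12.1% were higher and 14.7% lower in that comparison. Chid1 stood at 8.08, 7.40, 7.87 and 7.79, within 1.5-fold of its sham reading under GW4869.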
